A study of Rattus norvegicus with 12 samples.

Results

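Gene expression after KA was compared with that after PBS in the hippocampus of rats kept in enriched housing. The comparison used 6 of the 12 arrays of the study, chosen by their treatment labels: 3 of the group KA_enriched and 3 of PBS_enriched. All rats were treated at postnatal day 20. KA_enriched rats received KA and PBS_enriched rats phosphate-buffered saline, the vehicle, and both groups then lived in large cages of 8 rats. The other 6 arrays came from rats that were given KA or PBS at the same age and were then isolated for 10 days. They share the model here and serve to show where the enriched rats differ. Each sample was a pool of hippocampi from 3 to 4 animals, so n counts pools. The labels give neither strain nor sex, neither litter nor cage mates, and for enriched rats no length of stay, so the part of cage or litter in the KA comparison was not tested.

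The abbreviation KA is taken as kainic acid, since the series concerns seizures and no label spells it out. Kainic acid is an algal toxin that opens kainate- and AMPA-type glutamate receptors. In the hippocampus it drives the recurrent circuit of area CA3 into seizures, with bursts of immediate early genes within hours and, in adult rodents, loss of pyramidal and hilar neurons, microglial activation and astrogliosis over days. Immature rats seize readily but lose fewer neurons. Enriched housing is a larger, social and more varied cage, known in rodents to raise hippocampal neurogenesis and trophic factor levels.

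Values are array signals in linear units scaled by the authors to a common level, and differences are given as log2(signal + 17) of KA minus PBS with the standard error (SE) of a limma model over all 12 arrays. In these units a difference of 0.585 is a 1.5-fold ratio, and differences of dim genes are understated. The hippocampal markers Prox1 (granule cells), Wfs1 (CA1 pyramidal cells) and Slc17a7 (glutamatergic terminals) were well measured in all 6 enriched samples, at 233 to 253, 814 to 1010.0 and 2125 to 2384. Of the markers of neighbouring tissue, Drd2 and Adora2a of the striatum lay below the filter on low signal, and so did Kl of the choroid plexus. The other choroid plexus markers, Ttr and Folr1, were above the filter. Ttr read 683 in KA_enriched replicate 2 and 97.7 to 142 in the other 5 enriched samples, and Folr1 read 52.9 to 85.3. Tcf7l2 and Prkcd, which the thalamus expresses strongly, read 55.8 to 97.03 over both. KA_enriched replicate 3 stood apart from the other arrays. Its ratio of 3′ to 5′ signal for beta-actin, a sign of RNA quality, was the highest, at a log2 of 0.856 where the other 11 had 0.361 to 0.639. It also lay at 18.1 on a first principal component of the enriched arrays on which the other 5 lay between -9.28 and -0.56. Where leaving it out turned the sign of a difference named here or moved it by over 1.5 times, the value without it is given.

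No gene passed the test between KA and PBS in enriched rats. limma called 0 of 9520 probe sets at an adjusted p of 0.05, that is 0% of those tested, and the lowest adjusted p was 0.842. An unadjusted p under 0.05 was reached by 474 probe sets (4.98%), of which 261 (2.74%) were higher and 213 (2.24%) lower after KA. The 3 KA values lay wholly above or below the 3 PBS values in 916 probe sets (9.62%), 476 (5%) above and 440 (4.62%) below. Differences were small throughout: their median size was 0.073, 90% of them lay between -0.20 and 0.19, 8 probe sets were at 0.5 or more, 13 at -0.5 or less, and 0 beyond 1 in either direction. With a median SE of 0.099, the 95% interval of a typical probe set reached 0.213 to each side. For 9140 probe sets (96%) the interval lay wholly within ±0.585, so a 1.5-fold difference on this scale was outside it. The intervals use 1 spread pooled over all 4 groups. KA_enriched had the widest spread, a median SD over probe sets of 0.129 against 0.090 to 0.098, so they may be too narrow for this comparison. For comparison, the same model called 1 probe set (0.0105%) between KA and PBS in isolated rats. The difference between the 2 housing groups in the KA effect was called for 0 probe sets, while 473 (4.97%) reached an unadjusted p under 0.05.

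The genes described next are the 15 higher and 15 lower ones of smallest unadjusted p and the 6 of largest difference on each side whose groups did not overlap. They were picked by the comparison itself, so that they are high or low and do not overlap is no finding. Their values are given as descriptions, and all 30 of the first kind had the same adjusted p of 0.842.

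Among genes that act on RNA, the highest difference was that of Celf2, which encodes an RNA-binding protein that controls splicing and mRNA stability in neurons. One of its probe sets read 37.0, 29.5 and 53.2 in the PBS_enriched samples and 78.9, 93.5 and 98.04 in the KA_enriched samples, a log2 difference of 0.93 (SE 0.18, unadjusted p = 0.00016). All 3 KA samples thus lay above the highest PBS sample, and in isolated rats the difference was 0.011. The 3 other tested probe sets of Celf2 gave 0.03, -0.31 and -0.24, so the gene's probe sets disagreed. The brightest of these read 590 in KA_enriched replicate 3 and 1066 to 1134 in the other 5 samples. Cpsf4 and Clp1, both of the machinery that cleaves and polyadenylates pre-mRNA 3′ ends, were higher by 0.41 (SE 0.11) and 0.35 (SE 0.097). Cpsf4 read 86.6, 70.1 and 86.4 after PBS and 104.6, 104.3 and 132 after KA, and its difference was 0.31 without KA_enriched replicate 3 and 0.23 without that sample and PBS_enriched replicate 2. In isolated rats both genes had the opposite sign, at -0.39 and -0.22. On the lower side, the nuclear ribonucleoprotein gene Hnrnpab read 542, 566 and 626 after PBS and 471, 505.5 and 428 after KA (log2 -0.30, SE 0.084). Sf3a1, a component of the U2 splicing particle, had -0.46 (SE 0.22) and -0.28 without KA_enriched replicate 1, which read 20.01 where the others read 30.1 to 50.8. Its second probe set gave 0.05. The translation initiation factor gene Eif1a had -0.48 (SE 0.27). Eif4ebp2, a repressor of cap-dependent translation in brain, had 0.52 (SE 0.21), which rested on a single sample: KA_enriched replicate 3 read 195, the other 5 read 66.8 to 105.6, and its difference was 0.24 without that replicate.

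Per1 and Cry2, which encode partners in the repressor complex of the circadian clock, had large differences of opposite sign. Per1 is also induced by glucocorticoids and by neuronal activity. It read 26.5, 57.5 and 19.2 after PBS and 85.9, 65.4 and 74.04 after KA (log2 0.91, SE 0.25, unadjusted p = 0.0035). The PBS samples spread widely, and the lowest KA sample was close to the highest PBS sample. Cry2 read 94.98, 115 and 127 after PBS and 86.3, 66.0 and 51.5 after KA on one probe set (log2 -0.62, SE 0.15), and its brighter probe set gave -0.16 (SE 0.099) with overlapping groups. Among the 15 tested clock genes 8 were higher and 7 lower, and the median difference was 0.0002, against -0.0016 over all 6923 genes. Bmal1, the activator that the complex represses, had -0.16 (SE 0.105), or -0.093 without KA_enriched replicate 3. The output gene Dbp had 0.078 (SE 0.076), or 0.12 without that replicate. Both genes had overlapping groups. Time of day at tissue collection is not in the labels, and its part in these values was not tested.

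**Figure D1:**
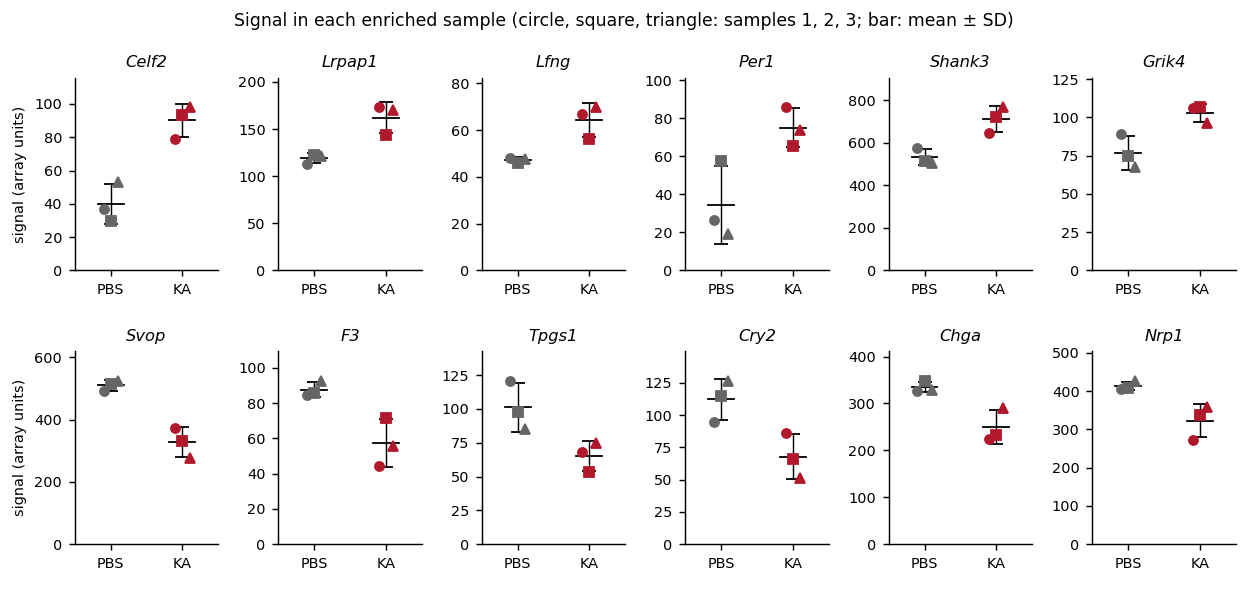
Array signal (linear units, y axes from 0) of 12 genes in the 3 PBS_enriched (grey) and 3 KA_enriched (red) samples, with the mean and SD of each group. Groups did not overlap in any of the 12, which were picked from the genes of smallest p and the named list members; none passed the test.

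On the lower side, 2 genes of secretory vesicles were among the leading ones. Svop encodes a synaptic vesicle membrane protein related to SV2, the target of levetiracetam. Its signal was 492, 514 and 525 in the PBS_enriched samples and 373, 332 and 277 in the KA_enriched samples (log2 -0.62, SE 0.13, unadjusted p = 0.00037). The PBS samples lay close together and every KA sample was well below them, whereas the difference in isolated rats was 0.10. Chga, chromogranin A of dense-core vesicles, read 327, 348 and 329.6 after PBS and 224, 233 and 291 after KA (log2 -0.41, SE 0.10). The other 16 tested granin and peptide-processing genes did not share this: of all 17, 11 were higher and 6 lower, with a median of 0.040. Furin, a protease that cleaves proproteins, was the other member whose groups did not overlap in that list, at 0.26 (SE 0.10). Of 39 synaptic vesicle and release genes 22 were higher and 17 lower (median 0.019), and 3 had groups that did not overlap, against 682 of all 6923 genes (9.85%). Synj1, a phosphatase that uncoats endocytosed vesicles, read 733, 703 and 661 after PBS and 802, 869 and 857 after KA (log2 0.26, SE 0.075). Vamp2, the vesicle SNARE protein synaptobrevin, had 0.36 (SE 0.16) with overlapping groups and 0.19 without KA_enriched replicate 3.

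Of the signalling genes, Lfng, a glycosyltransferase that modifies Notch receptors, read 48.2, 45.9 and 47.6 after PBS and 66.8, 56.0 and 69.9 after KA (log2 0.33, SE 0.080). The PBS values were nearly equal and all KA values were above them. In isolated rats the difference had the other sign (-0.14). The 18 Notch pathway genes were 9 higher and 9 lower, and 2 others had groups that did not overlap: Ncstn, the nicastrin subunit of gamma-secretase, at -0.19 and the transcriptional regulator Hes6 at -0.18. Over all 6923 genes 9.85% had such groups. Lrpap1, a chaperone of LDL receptor family proteins, read 113, 122 and 122 after PBS and 173, 144 and 169.8 after KA (log2 0.40, SE 0.087), while its other probe set gave -0.02. Plxnb2, a semaphorin receptor, had 0.45 (SE 0.12), or 0.30 without KA_enriched replicate 3, which read 223 against 159 in each of the other KA samples. Nrp1, a co-receptor for class 3 semaphorins and VEGF, was lower, with 407, 407 and 427 after PBS and 273, 338 and 358 after KA (log2 -0.35, SE 0.115), but its other probe set gave 0.007. Among all 27 axon guidance genes 11 were higher and 16 lower (median -0.011).

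Pde4a encodes a cyclic nucleotide phosphodiesterase and Pde6g the inhibitory gamma subunit of another. Pde4a had 0.49 (SE 0.15), or 0.28 without KA_enriched replicate 3, and Pde6g, best known from rod photoreceptors, -0.33 (SE 0.090). Vsir, an immune checkpoint receptor of myeloid cells, read 83.3, 110.9 and 94.2 after PBS and 120.3, 129 and 142 after KA (log2 0.39, SE 0.10). In isolated rats the Vsir difference had the same sign, at 0.22, and groups did not overlap there either. F3, tissue factor, the cell-surface initiator of blood coagulation that astrocytes express, read 84.8, 85.5 and 92.7 after PBS and 44.6, 71.8 and 55.6 after KA (log2 -0.51, SE 0.11). In isolated rats the F3 difference was 0.19. Igfbp5, a binding protein of insulin-like growth factors, had -0.40 (SE 0.096) on one probe set and 0.13 on a brighter one, or 0.064 on the latter without KA_enriched replicate 3. Optn, an autophagy receptor, was the gene among the 30 whose 2 probe sets both separated the groups in 1 direction, at -0.30 (SE 0.083) and -0.33 (SE 0.12). It read 214, 182 and 196 after PBS and 157, 149.8 and 165 after KA on the first. Fkbp1a, the FK506-binding protein FKBP12, read 1270, 1262 and 1290 after PBS and 1082, 1050 and 841 after KA (log2 -0.37, SE 0.098), while its 2 other probe sets gave 0.01 and 0.03. In all, 6 of the 30 genes had other tested probe sets, 9 together, of which 3 had the sign of the first and 1 separated the groups the same way.

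Mitochondrial and metabolic genes made up several of the rest. COX1, the mitochondrially encoded core subunit of cytochrome oxidase, read 3056, 3378 and 3064 after PBS and 4048, 4378 and 3537 after KA (log2 0.33, SE 0.087). Coa8, an assembly factor of that enzyme, read 173, 191 and 163 after PBS and 315, 254 and 203 after KA (log2 0.49, SE 0.13). Dnaja3, a mitochondrial co-chaperone, had 0.36 (SE 0.095). The nuclear oxidative phosphorylation list did not follow these: 39 of 68 genes were higher and 29 lower, and the median was 0.016. Groups did not overlap in 7 of the 68, 4 higher and 3 lower, which is near the share over all genes (9.85%). Its members of smallest p were Atp5f1a of ATP synthase (0.18), Ndufs4 (0.21) and Ndufb7 (-0.19) of complex I. On the lower side Decr2, a peroxisomal enzyme of unsaturated fatty acid oxidation, read 66.0, 56.9 and 52.7 after PBS and 38.8, 40.2 and 45.6 after KA (log2 -0.37, SE 0.083). Gart, a trifunctional enzyme of purine synthesis, had -0.26 (SE 0.069).

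The remaining leading genes serve the cytoskeleton, membrane traffic, transcription and nutrient sensing. On the lower side, Tpgs1, a subunit of the tubulin polyglutamylase complex, read 120.7, 97.5 and 85.4 after PBS and 67.8, 53.2 and 74.9 after KA (log2 -0.52, SE 0.12). Tpgs1 was also lower after KA in isolated rats, by -0.21, without overlap. In enriched rats several others went the same way. The centriolar gene Poc5 had -0.34, the junction-associated Tjap1 -0.38 and the phosducin-like Pdcl3, which aids protein folding, -0.31. Higher values came from Mllt10, a chromatin cofactor (0.42), Wdr59 of the GATOR2 complex upstream of mTORC1 (0.26), Cdc42ep2, an effector of CDC42 (0.25), Cog1 of the Golgi tethering complex (0.50), Ccser2 (0.28) and Eola2 (0.38). Each of these 10 genes had groups that did not overlap.

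The leading genes were compared with isolated rats, whose samples had no part in choosing them, although the model's estimate of the spread is shared. Of the 15 higher genes 9 were also higher after KA in isolated rats, where 47.7% of all probe sets were, and their median difference was 0.024. Of the 15 lower genes 5 were also lower there, where 52.3% of all probe sets were, and their median was 0.017. Across all 9520 probe sets the differences in the 2 housing groups had a Pearson r of -0.042 and a Spearman rho of -0.041, a description across probe sets of the same arrays, which are not independent. The interaction, the KA effect in enriched minus that in isolated rats, had an unadjusted p under 0.05 for 10 of the higher and 14 of the lower genes, but it contains the contrast that picked them, and the lowest adjusted p among them was 0.758.

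**Figure D2:**
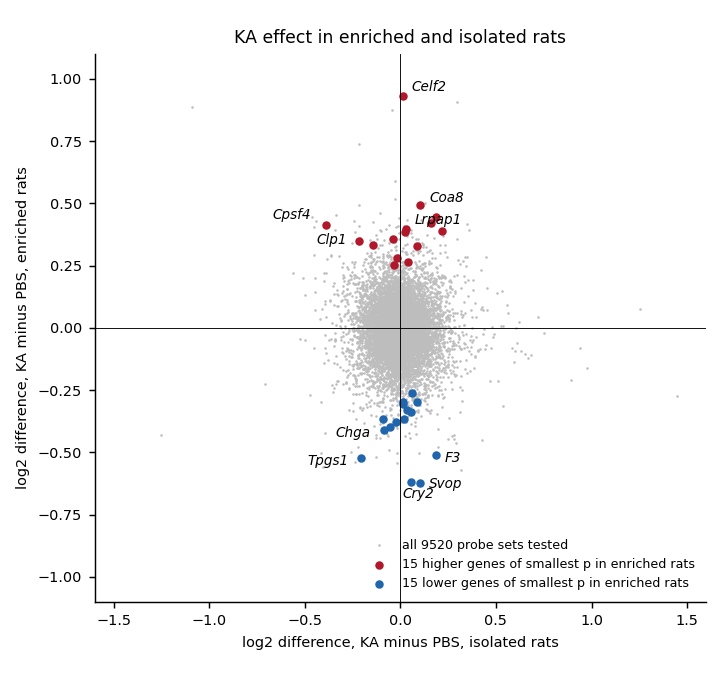
Each point is 1 of 9520 probe sets, placed by its log2 difference of KA minus PBS in isolated rats (x axis) and in enriched rats (y axis). The 15 higher (red) and 15 lower (blue) genes of smallest p in enriched rats lie on both sides of 0 in isolated rats, with medians of 0.024 and 0.017.

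Gene lists of pathways, receptors and cell types were then counted, among them markers of neighbouring tissue and blood and housekeeping pathways. They held 690 tested genes in 35 lists. Of these genes 0 passed, 39 (5.65%) had an unadjusted p under 0.05 against 5.1% of all 6923 genes, and 69 (10%) had groups that did not overlap against 9.85% of all. List medians ran from -0.061 to 0.13, and 33 of 35 lay within 0.1 of 0. The sign of 10 medians turned without KA_enriched replicate 3, of 12 without PBS_enriched replicate 2, and of 29 without at least 1 of the 6 samples, so small medians have no settled direction. Of all 6923 genes 49.3% had a difference above 0, against which the counts of higher and lower members can be read.

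Activity-regulated genes had small differences. Among 21 immediate early and activity-regulated genes 11 were higher and 10 lower, the median was 0.005, and the differences ran from -0.13 to 0.14. Groups did not overlap in 0 of the 21, against 9.85% of all 6923 genes. An unadjusted p under 0.05 was reached by 0, against 5.1% of all. At those shares few of 21 genes would be counted. Egr1, a transcription factor induced by synaptic activity, read 540.0, 547 and 664 after PBS and 572, 561 and 630.3 after KA, a difference of 0.014 with a 95% interval from -0.18 to 0.21. Arc, which regulates AMPA receptor traffic, read 285, 351 and 319 after PBS and 285, 440.3 and 343 after KA (0.14, interval -0.15 to 0.42, or -0.021 without KA_enriched replicate 2). The Egr1 difference was -0.036 without KA_enriched replicate 3. Fos lay below the filter, at 36.7, 73.0 and 72.3 after PBS and 73.6, 67.2 and 70.2 after KA. These genes mark activity in the hours before tissue was taken.

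Among receptors for the agonist itself, Grik4, the high-affinity kainate receptor subunit KA1 of CA3 pyramidal cells, read 89.1, 74.5 and 67.4 after PBS and 105.9, 106.7 and 96.3 after KA (log2 0.36, SE 0.10, unadjusted p = 0.0039). All KA samples were above all PBS samples, and the difference was between 0.28 and 0.45 when any 1 sample was left out. Grik4 was named for its small p in this comparison, and groups that do not overlap keep their sign when a sample is left out. Neither is therefore a finding. The AMPA receptor subunit Gria1 and the NMDA receptor subunit Grin2a were lower in all KA samples, at -0.45 (SE 0.22) and -0.39 (SE 0.19). Grin2a read 121, 127 and 115 after PBS and 108, 114 and 54.6 after KA. Without KA_enriched replicate 3 the differences were -0.27 for Gria1 and -0.11 for Grin2a. The other Grin2a probe set gave -0.20 with overlapping groups. Of the 15 tested glutamate receptor genes 6 were higher and 9 lower (median -0.011). At the postsynaptic density, Shank3, a scaffold protein of excitatory synapses, read 575, 515 and 506 after PBS and 645, 723 and 768 after KA (log2 0.41, SE 0.12, unadjusted p = 0.0041). Cit, citron kinase, had 0.25 (SE 0.082). The 29 postsynaptic density genes were 18 higher and 11 lower with a median of 0.017.

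The GABA receptor subunit genes were 4 higher and 4 lower of 8. Gabra4, an extrasynaptic alpha subunit, had -0.26 (SE 0.12) with groups that did not overlap, and Gabra5 -0.21 (SE 0.11) with groups that did. Gabra4 had -0.16 without KA_enriched replicate 3 and Gabra5 -0.085 without KA_enriched replicate 1. Interneuron markers gave 5 higher and 5 lower of 10, with Reln at -0.15, Gad2, a GABA-synthesising enzyme, at -0.21 and Sst, the peptide somatostatin, at 0.19, each with overlapping groups. Without KA_enriched replicate 3 the last 2 were -0.023 and 0.075. The other Reln probe set gave 0.040. The somatostatin receptor gene Sstr4 read 53.2, 51.0 and 58.9 after PBS and 63.7, 74.3 and 67.4 after KA (log2 0.26, SE 0.085). The KA values were all higher here, while in isolated rats the difference was -0.30. Gal, galanin, a peptide that dampens seizures in rodents, read 68.6, 68.8 and 58.3 after PBS and 80.9, 95.8 and 73.6 after KA (log2 0.29, SE 0.095). Npy, which is induced in granule cells after adult seizures, differed by -0.054 (interval -0.24 to 0.13), with 508, 469 and 452 after PBS and 426, 442 and 509 after KA. The Npy difference was -0.13 without KA_enriched replicate 3. Of 19 neuropeptide and receptor genes 12 were higher and 7 lower with a median of 0.080, which was -0.002 without KA_enriched replicate 3 and -0.029 without that sample and PBS_enriched replicate 2.

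Ion channel genes were near balance, with 15 of 27 potassium channel genes and 12 of 22 sodium, calcium and HCN channel genes higher. The sodium channel beta subunit Scn2b read 110.7, 112 and 121 after PBS and 100, 94.1 and 54.1 after KA (log2 -0.43, SE 0.16), and its difference was -0.21 without KA_enriched replicate 3. Scn3b, another beta subunit, had 0.34 (SE 0.13) with overlapping groups, or 0.21 without that replicate. Kcnj4, an inward rectifier, had 0.30 on its brighter and -0.22 on its other probe set. Among neurotrophins and growth factors 10 of 18 were higher (median 0.105, or 0.027 to 0.079 when 1 sample was left out). Bdnf, the brain-derived neurotrophic factor, read 133, 150.5 and 121 after PBS and 112, 137 and 129 after KA (-0.086, interval -0.28 to 0.10). Its receptor gene Ntrk2 had 0.18 (SE 0.088) with 1 probe set, or 0.10 without KA_enriched replicate 3, and -0.05 with another.

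**Figure D3:**
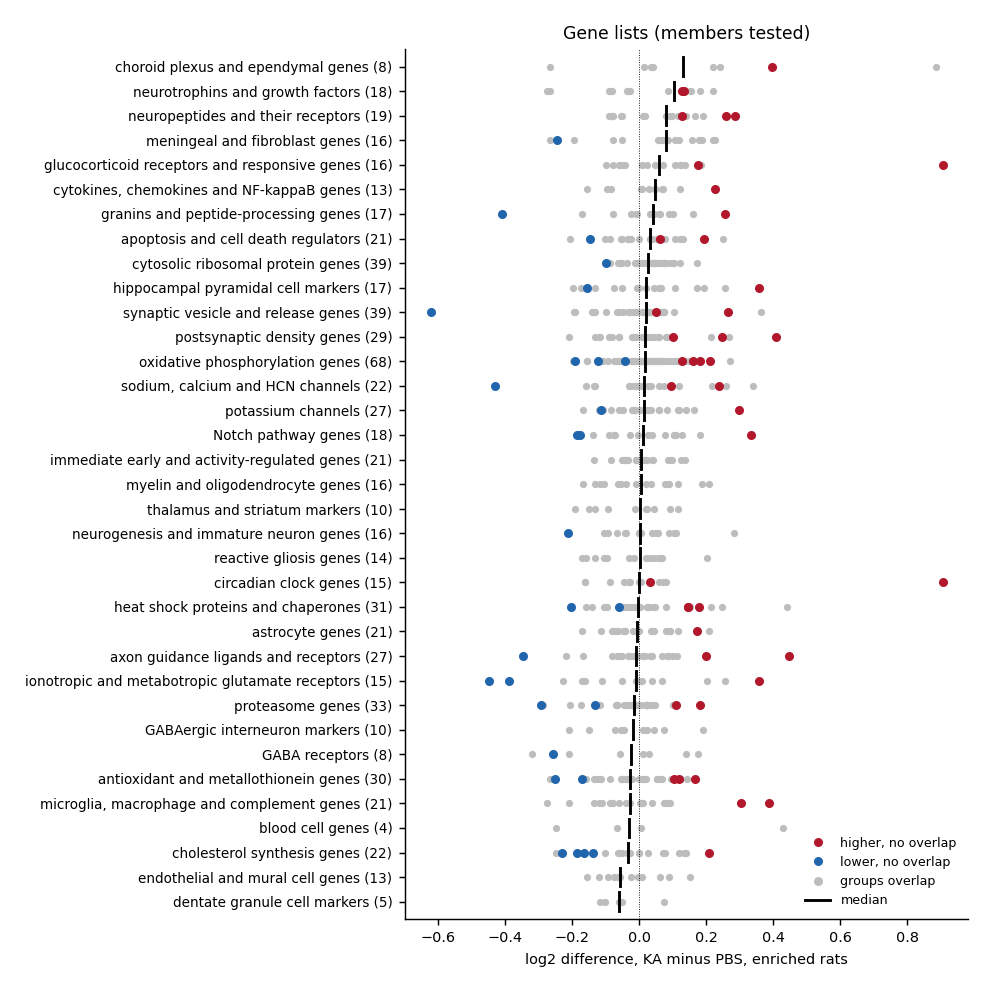
Log2 difference of KA minus PBS in enriched rats (x axis) for each tested member of 35 gene lists (rows, number of members in brackets), with the list median as a black bar. Coloured points are members whose 3 KA and 3 PBS values did not overlap, 10% of list genes against 9.85% of all genes; medians ran from -0.061 to 0.13.

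Microglial and glial genes varied between samples within both groups. In bulk tissue, fewer cells of a type and less RNA per cell cannot be told apart. Of 21 microglia, macrophage and complement genes 10 were higher and 11 lower, with a median of -0.029. C3, the central complement component, read 24.2, 99.1 and 22.5 after PBS and 24.6, 26.4 and 105.9 after KA. Cd74, the MHC class II invariant chain, read 42.2, 152 and 59.7 after PBS and 43.9, 33.6 and 124 after KA. For both genes 1 sample of each group, PBS_enriched replicate 2 and KA_enriched replicate 3, was far above the others. The summed signal of the 21 genes followed, at 2572, 3731 and 2634 after PBS and 2694, 2412 and 3711 after KA, and the list median was 0.11 without PBS_enriched replicate 2, -0.12 without KA_enriched replicate 3 and -0.007 without both. Its sign also turned without KA_enriched replicate 1 (0.009) or 2 (0.048). Aif1, the microglial protein Iba1, read 59.9, 51.8 and 64.7 after PBS and 77.5, 69.1 and 82.8 after KA (log2 0.30, SE 0.14), but its other probe set gave -0.09.

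The same list in isolated rats had 20 of 21 members higher after KA and a median of 0.43. Its 21 members had a median interaction of -0.47, or -0.45 without PBS_enriched replicate 2 and KA_enriched replicate 3. The median was -0.32 without only the former and -0.615 without only the latter, the extremes when 1 enriched sample was left out. An unadjusted interaction p under 0.05 was reached by 10 members, each with the smaller KA effect in enriched rats, against 2.12% of all 6923 genes in that direction. limma called 0 of them over all probe sets. The members of this list varied together between samples, so the 10 are not independent of each other. The reactive gliosis genes had 7 higher and 7 lower of 14 in enriched rats (median 0.001) and 12 of 14 higher in isolated rats (median 0.24), with 4 at an unadjusted interaction p under 0.05 against 4.82% of all genes. Gfap, the astrocyte filament protein that marks gliosis, read 1661, 2146 and 1876 after PBS and 1699, 1963 and 2311 after KA (0.068, interval -0.22 to 0.35, or -0.045 without KA_enriched replicate 3). Its highest samples were again PBS_enriched replicate 2 and KA_enriched replicate 3, and their summed gliosis signal was 8256 and 8726 against 7126 to 7769 in the other 4. Without both samples the median gliosis interaction was -0.24, against -0.25 with them. It ran from -0.28 to -0.16 when 1 enriched sample was left out. The gliosis genes, too, are not independent of each other.

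**Figure D4:**
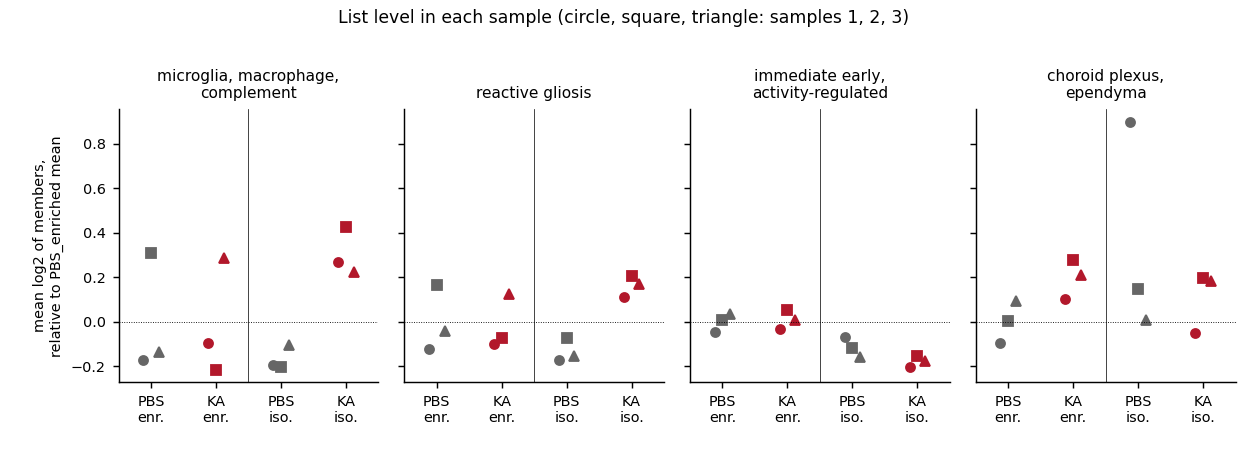
Mean log2 level of the members of 4 gene lists in each of the 12 samples, relative to the mean of PBS_enriched (y axis); grey points are PBS and red points KA samples, enriched on the left and isolated on the right of each panel. In the microglial list PBS_enriched replicate 2 (0.31) and KA_enriched replicate 3 (0.29) lie among the 3 KA_isolated samples (0.22 to 0.42), and the other 4 enriched samples lie at or below -0.094.

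Other cell types gave small differences. Astrocyte genes were 9 higher and 12 lower of 21. S100b, a calcium-binding protein of astrocytes, read 2405, 2466 and 2396 after PBS and 2597, 2816 and 2779 after KA (log2 0.17, SE 0.076). Myelin and oligodendrocyte genes were 8 higher and 8 lower of 16. Mbp, myelin basic protein, had 0.11 (SE 0.084), and 0.017 on its other probe set. Granule cell markers had 1 higher and 4 lower of 5 (median -0.061), and pyramidal cell markers 10 higher and 7 lower of 17 (median 0.020). Prox1 differed by -0.061 (SE 0.066) and Wfs1 by -0.16 (SE 0.087), the latter with every KA sample below every PBS sample. The other Wfs1 probe set gave -0.058 with overlapping groups. On the first probe set Wfs1 was also lower after KA in isolated rats, by -0.32, and groups did not overlap there either. Among 16 neurogenesis and immature neuron genes 9 were higher and 7 lower (median 0.003). Cd24, a surface protein of immature neurons, read 409, 457 and 419 after PBS and 359.5, 400 and 343 after KA (log2 -0.21, SE 0.078). Neurod1, a transcription factor of granule cell differentiation, had the opposite sign, at 0.28 (SE 0.13), with overlapping groups.

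The choroid plexus and ependymal list stood highest, with 7 of 8 tested genes higher and a median of 0.13. Ttr, transthyretin, the thyroxine carrier that choroid plexus secretes, read 110.1, 142 and 97.7 after PBS and 130.5, 683 and 125 after KA. KA_enriched replicate 2 alone set this difference (log2 0.89, SE 0.93, or 0.13 without it). Aqp1, a water channel of choroid plexus, read 73.5, 73.2 and 72.4 after PBS and 92.2, 83.2 and 135 after KA (log2 0.40, SE 0.18, or 0.22 without KA_enriched replicate 3), and the folate receptor gene Folr1 0.24 (SE 0.13). The list's mean level separated the groups, at -0.097 to 0.095 after PBS and 0.10 to 0.28 after KA, but overlapped without Ttr, and its median was then 0.042. How much choroid plexus each dissection held was not tested. List levels separated the groups in 3 of 35 lists (8.57%), which is near the 9.85% of all 6923 genes that did so singly. The other 2 were GABA receptors, lower with a mean difference of -0.062, and glucocorticoid receptors and responsive genes, higher with 0.098. The GABA receptor median was -0.024, or 0.020 without KA_enriched replicate 2. The summed signal of that list overlapped, at 4035 to 4120 after PBS and 3809 to 4395 after KA. The glucocorticoid list overlapped without Per1, which is 1 of its 16 members. Hsd11b1, which regenerates active glucocorticoid, had 0.175 (SE 0.11) and Fkbp5, a receptor co-chaperone, 0.14 (SE 0.14). The Hsd11b1 value was 0.086 without PBS_enriched replicate 1, and that of Fkbp5 0.029 without PBS_enriched replicate 2 and -0.0035 without KA_enriched replicate 3.

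Genes of stress and housekeeping pathways completed the lists. Of 21 regulators of apoptosis 11 were higher and 10 lower (median 0.031). Mdm2, the ubiquitin ligase for p53, had 0.25 (SE 0.0998), and Bid, a pro-apoptotic BH3 protein, 0.19 (SE 0.086). Heat shock and chaperone genes were 15 higher and 16 lower of 31, and antioxidant and metallothionein genes 14 higher and 16 lower of 30. Sod2, the mitochondrial superoxide dismutase, read 406, 384 and 432 after PBS and 385, 317 and 309.8 after KA (log2 -0.27, SE 0.11). Its lowest PBS sample and its highest KA sample nearly coincided. Gclc, which makes the precursor of glutathione, had -0.25 (SE 0.11), or -0.097 without KA_enriched replicate 3, and its other probe set gave -0.11. Cytosolic ribosomal protein genes were 27 higher and 12 lower of 39 with a median of 0.026, or -0.012 without KA_enriched replicate 3, and proteasome genes 14 higher and 19 lower of 33. Psmd4, the ubiquitin receptor of the proteasome, read 383, 365 and 373 after PBS and 279, 303 and 327 after KA (log2 -0.29, SE 0.10).

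Cholesterol synthesis was the list with the most members lower without overlap, 4 of 22 (18.2%), against 4.75% of all genes. It was picked by this count as the highest of 35 lists, so its rank is no finding. The glutamate receptor, GABA receptor and Notch lists had 13.3%, 12.5% and 11.1%. Fdps, farnesyl diphosphate synthase, read 435, 441 and 524 after PBS and 384, 386 and 410.4 after KA (log2 -0.23, SE 0.096). Lss, lanosterol synthase, read 135, 147 and 136 after PBS and 124, 118 and 125 after KA (log2 -0.16, SE 0.073). Every KA sample was below every PBS sample for both, by a small margin. Acat2, which joins 2 acetyl-CoA units at the start of the pathway, had -0.19 (SE 0.091). Hsd17b7, a later enzyme, had the opposite sign, at 0.21 (SE 0.085), while its other probe set gave 0.022. The whole list was 8 higher and 14 lower with a median of -0.033.

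The KA_enriched samples differed more among themselves than those of the other groups. The median SD over probe sets was 0.129 in KA_enriched, against 0.090 in PBS_enriched, 0.098 in PBS_isolated and 0.096 in KA_isolated, and the KA SD exceeded the PBS SD in 66.3% of probe sets in enriched rats. KA_enriched replicate 3 read more than 0.5 (log2) below all 5 other enriched samples in 35 of 6923 genes and above them in 9, and replicate 2 in 14 and 4, while the other 4 samples had 1 to 4 each way. The genes named here were chosen after their values were seen. Among the genes low in replicate 3 were Srp72 of the signal recognition particle, at 138 against 282 to 354, the endoplasmic reticulum chaperone gene Hyou1, at 33.3 against 77.1 to 122, the kinase subunit gene Csnk2a1, at 323 against 614 to 717, and Gnaq, a G protein alpha subunit, at 57.2 against 118 to 130. In replicate 2 the metabotropic glutamate receptor gene Grm8 read 57.8 against 117 to 267 and the integrin gene Itgb1 87.1 against 152 to 198. The array with most such genes is also the one with the highest 3′ to 5′ ratios, whose part in these values was not tested.

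**Figure D5:**
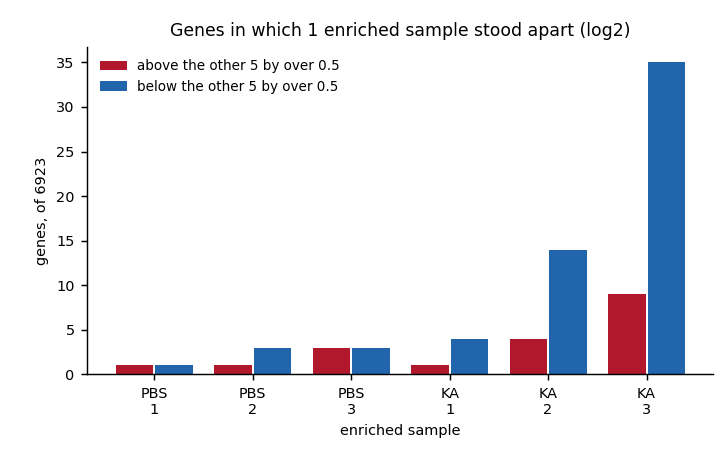
Number of genes, of 6923, in which 1 enriched sample lay more than 0.5 on the log2 scale above (red) or below (blue) all 5 other enriched samples. KA_enriched replicate 3 had 9 above and 35 below, replicate 2 had 4 and 14, and each of the other 4 samples had 1 to 4.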

How the data were processed

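RNA of 12 pooled rat hippocampus samples was measured on 1-colour Affymetrix-type arrays, 4 groups of 3. The deposited values are probe set intensity on a linear scale; the summary method and software were not given in the sources used here. On every array the deposited intensity had a mean of 150 after leaving out the lowest and highest 2%, so it was not normalized again. The number of arrays limits the precision. Groups came from the treatment labels and replicate numbers from the titles.

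The 57 control probe sets were left out, and of the other 15866 the 60% with the highest mean over 12 arrays were tested (9520) as log2(signal + 17), 17 being about the 20th percentile. Names came from the platform annotation: 12789 probe sets had 1 symbol, 312 several and 2822 were not listed, and 12754 matched a RefSeq gene table. limma 3.58.1 in R 4.3.3 was fitted with a mean per group over all 12 arrays (13.1 degrees of freedom), with two-sided p-values adjusted by Benjamini-Hochberg over 9520 probe sets. The steps were tested on simulated data.

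The comparison, the 35 lists and the naming rule were chosen with earlier results of these data known. The rule named the 15 higher and 15 lower genes of smallest p and the 6 of largest difference on each side whose groups did not overlap. It also named up to 4 members per list, those of smallest p, and 12 panel genes, of which Fos lay below the filter. In that ranking 5 probe sets without a usable symbol were passed over. In lists a gene stands with its brightest tested probe set. Replicate numbers were checked for pairing: deviations of same-numbered samples correlated at 0.012, 0.010 and 0.068, below 0.1. Samples of unlike number gave -0.066 to 0.056. No strong pairing was seen, and the samples were treated as unpaired. With 3 samples per group this check cannot show that the numbers carry no shared batch.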

Additional observations from a re-analysis of the deposited data

How the results depend on the processing

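The count of probe sets passing stayed at 0 in all 18 alternatives, and that of the interaction at 0 in the 17 in which it could be fitted. The lowest adjusted p ran from 0.161 (without KA_enriched replicate 2) to 0.999. Probe sets at an unadjusted p under 0.05 numbered 830 of 15866 with no filter and 315 of 6347 with the brightest 40%, where more and fewer were tested, and 396 to 715 when 1 sample was left out, the highest without KA_enriched replicate 1. With the replicate block there were 517, and 0 passed. None of the leading genes changed sign in any alternative. Their groups did not overlap, so leaving out samples or changing the pseudocount could not turn the sign, and this is no support for them. Only 7 of the 30 were again among the 30 of smallest p without PBS_enriched replicate 2 and KA_enriched replicate 3, against 29 with a pseudocount of 4. The cause was not tested. Of 665 list medians recomputed under alternatives 58 moved by more than the spread between samples, and of 2374 differences of named list members 19 did. Differences of genes near the array's floor are limited by signal.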
